A study of Petunia x hybrida with 12 samples.

Results

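The response of roots of the petunia mutant *ram1-2* (*ram1*) to the arbuscular mycorrhizal fungus *Rhizophagus irregularis* was followed in 6 of the 12 RNA libraries of the study: 3 from mycorrhizal and 3 from control roots of *ram1*. These members were chosen by genotype alone, and the question was which responses remain without *RAM1* and how steady they are over replicates. The remaining 6 libraries come from the wild type W115, again with and without the fungus, and serve here for comparison. Root samples were taken 15 days after inoculation with strain MUCL 43204. The labels name a soil inoculum, the study adds that nurse plants carried the infection, and it calls its replicates separate plants. For mycorrhizal roots the study reports a lower share of fungal reads in *ram1* than in the wild type. The mean colonisation it gives is also lower in *ram1*, with spreads that overlap. The part of this in comparisons of *ram1* with the wild type was not tested. All *ram1* libraries, controls included, carry the *ram1-2* mutation, and the treatment named as separating them is inoculation with the fungus. The study does not say whether controls received soil or nurse plants without the fungus. Effects of these cannot be told apart from those of the fungus. In bulk root RNA, fewer cells of a type and less RNA per cell cannot be told apart.

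In arbuscular mycorrhiza (AM) the fungus enters the root, grows between the cortical cells and forms branched arbuscules inside them, where phosphate and ammonium pass to the plant and lipids and sugars to the fungus. Strigolactones released by the root stimulate the fungus, and the receptors, channels and kinases of the common symbiosis pathway relay its signals to transcription factors in the nucleus. *RAM1* encodes a GRAS-type transcription factor that is needed for fully developed arbuscules and for the genes of lipid and nutrient exchange. In *ram1* roots the fungus still enters and its arbuscules stay stunted.

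*RAM1* itself (Peaxi162Scf00420g00650.1) was still induced in the mutant. Its CPM values (read counts relative to library size, scaled with TMM) were 0.328, 0.231 and 0.148 in control replicates 1, 2 and 3 and 6.06, 8.62 and 8.32 in mycorrhizal replicates 1, 2 and 3. The groups did not overlap, and the difference passed the test (log2 fold change 4.93, SE 0.331, adjusted p 0.00185). Mycorrhizal wild type roots had 117 ± 10.2 CPM (SD, n = 3) and wild type controls 0.217. The response of the gene was smaller in *ram1* (difference of log2 fold changes −4.05, SE 0.585, adjusted p 0.00219). The tables hold 1 total per gene model and do not show which part of the transcript the reads cover.

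The *ram1* libraries held 7152267 to 13391147 reads on genes, with the lowest number in mycorrhizal replicate 2, and between 25026 and 25794 gene models had at least 1 read. A principal component analysis of log2 CPM put 59.6% of the variance on a first component that separated control from mycorrhizal roots. A library of each group stood between them. Control replicate 3 had a score of −26.2, against −73.6 and −62.9 of the other controls, and mycorrhizal replicate 1 a score of 17.1, against 74.9 and 70.7. These 2 libraries also lay at the opposite ends of the second component (16.7%), at −56.2 and 48.2. Replicates differed by more than counting noise (chi-square divided by its degrees of freedom 11.6 to 45.1), and no library repeats another. Results are therefore given with their behaviour when single libraries are left out.

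**Figure D1:**
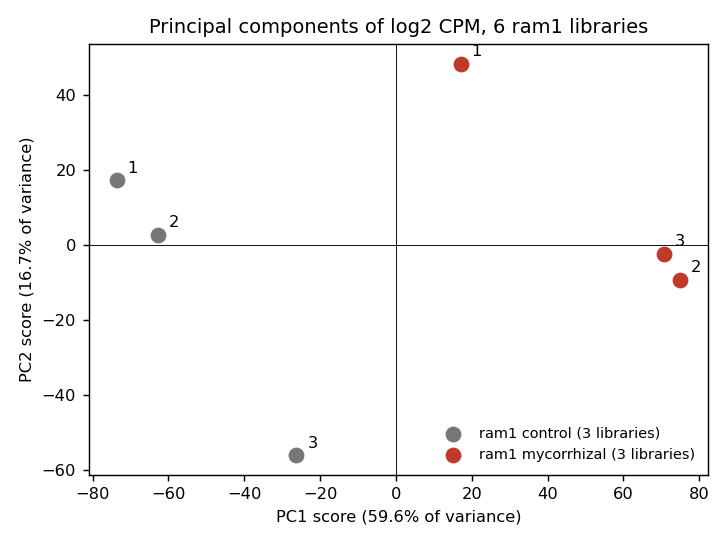
Scores of the 6 *ram1* libraries on the first (x axis) and second (y axis) principal component of log2 CPM over 21652 genes; grey points are control and red points mycorrhizal libraries, numbered by replicate. Control replicate 3 and mycorrhizal replicate 1 lie between the other libraries on the first component and at opposite ends of the second.

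The test (edgeR's quasi-likelihood test on the 6 libraries) took in 21652 of 32928 gene models, those whose mean reached 10 reads in control or mycorrhizal roots. Mycorrhizal roots differed from controls in 408 genes at an adjusted p below 0.05 (1.88% of the genes tested), of which 241 were induced (1.11%) and 167 repressed (0.771%). Induction was large and repression moderate: the median log2 fold change was 4.36 among the induced and −1.38 among the repressed genes, against 0.01 over all genes tested. At least 5-fold changes were found in 181 induced and 15 repressed genes. Of the induced genes, 139 had a mean below 10 reads in the controls and passed the read filter through the mycorrhizal libraries alone. No repressed gene came from such a level, but the filter all but excludes this. Such a gene would need a mycorrhizal mean of 10 reads or more. None of the 408 genes overlapped between the groups of 3 libraries, but neither did 31.6% of all genes tested.

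When each of the 6 libraries was left out in turn, 98 of the 408 genes (0.453% of those tested) passed the test every time, namely 96 induced genes and 2 repressed ones. These are called steady in the following. The number of genes called fell to 152 and 129 without control replicates 1 and 2, and to 117 and 120 without mycorrhizal replicates 2 and 3. It rose to 1297 without control replicate 3, to 1464 without mycorrhizal replicate 1 and to 4473 without both. The fit without both was chosen after seeing the data and leaves out the libraries that stood between the groups, so it does not measure steadiness. All 408 genes were again called in that fit, and 404 without mycorrhizal replicate 1 alone. Of the 167 repressed genes, 14 and 15 were still called without control replicates 1 and 2, and 6 and 5 without mycorrhizal replicates 2 and 3. The numbers among the 241 induced genes were 128, 109, 111 and 108. The fold changes themselves moved little. The median log2 fold change lay between 4.203 and 4.58 for the induced and between −1.50 and −1.29 for the repressed genes with 1 library left out, and all 167 repressed genes and the 240 induced genes that could be fitted each time kept their direction. Calls were lost while the fold changes stayed, and the repressed genes had the smaller changes with all libraries too.

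**Figure D2:**
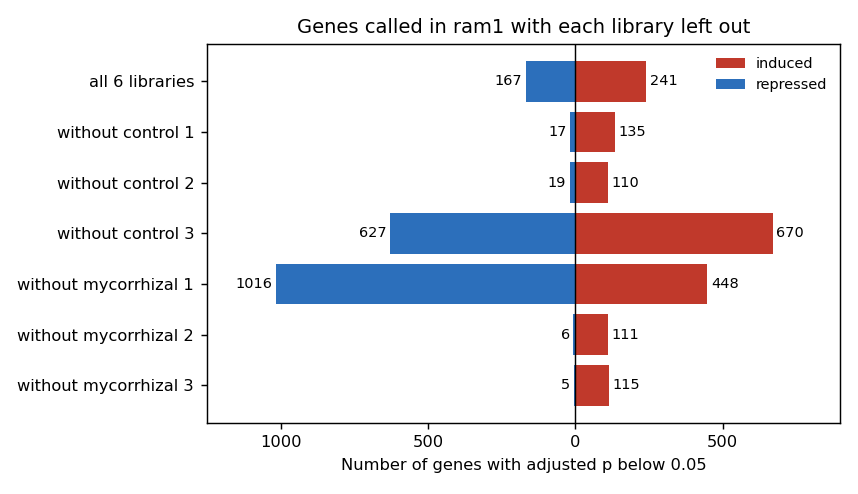
Number of genes called in *ram1* (x axis, adjusted p below 0.05) with all 6 libraries and with each library left out (y axis); red bars are induced and blue bars repressed genes. Repressed genes numbered 167 with all libraries and between 5 and 1016 with 1 left out, induced genes 241 and between 110 and 670.

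The 96 steady induced genes had a median log2 fold change of 6.56 (1.499 to 11.5), and 69 of them had a mean below 10 reads in the controls. Of the 96 genes, 52 belonged to one of the gene lists drawn up for root and symbiosis functions and 4 had no description. A gene for germin-like protein 2 (Peaxi162Scf00003g04532.1), of a family of apoplastic proteins, had 0.164, 0.231 and 0.148 CPM in control and 16.6, 17.4 and 21.2 CPM in mycorrhizal replicates 1 to 3 (log2 fold change 6.55, SE 0.243, adjusted p 0.000687). A beta-amyrin synthase gene (Peaxi162Scf00928g00242.1), for an enzyme that forms the carbon skeleton of triterpenes, had 1 read in each control library and 12.8, 18.1 and 16.1 CPM in the mycorrhizal ones. It rose 196-fold (95% counting interval 66.6 to 953, adjusted p 0.000687). Both genes were closely alike in the 3 mycorrhizal libraries and held the smallest p values of the comparison.

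A PAR1 protein gene (Peaxi162Scf00025g01320.1) went from 0.164, 0.231 and 0.148 to 34.4, 57.7 and 65.3 CPM (log2 fold change 8.05, SE 0.384, adjusted p 0.00147). The subtilase gene Peaxi162Scf00620g00418.1, for a secreted serine peptidase, went from 0.246, 0.308 and 0.519 to 38.3, 75.1 and 57.9 CPM (7.22, SE 0.383, 0.00147). For a gene with a DUF1624 domain (Peaxi162Scf00722g00419.1), 1 read in all controls stood against 17.0, 28.4 and 23.8 CPM, an 852-fold rise with a counting interval of 152 to 33702. In all of these genes mycorrhizal replicate 1 was the lowest of the mycorrhizal libraries and still far above every control. Some steady genes started from a clear level: a cellulose synthase like G1 gene (Peaxi162Scf00024g00617.1) had 20.8, 20.3 and 21.1 CPM in controls and 73.6, 96.0 and 84.3 CPM in mycorrhizal roots (1.99, SE 0.119, 0.00163). The zinc-binding dehydrogenase gene Peaxi162Scf00047g00084.1 rose from 7.38, 6.47 and 8.23 to 69.7, 109 and 105 CPM (3.64, SE 0.210, 0.00148). The other genes with the smallest p among the steady ones encode a protein kinase (Peaxi162Scf00360g00124.1, 56.6-fold), a leucine-rich repeat kinase (Peaxi162Scf00429g00013.1, 569-fold with an interval of 194 to 2764), a GDSL esterase (Peaxi162Scf00362g00339.1, with 31.7, 73.0 and 59.8 CPM in mycorrhizal roots and at most 0.164 CPM in controls), transporters and cytochrome P450 enzymes.

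**Figure D3:**
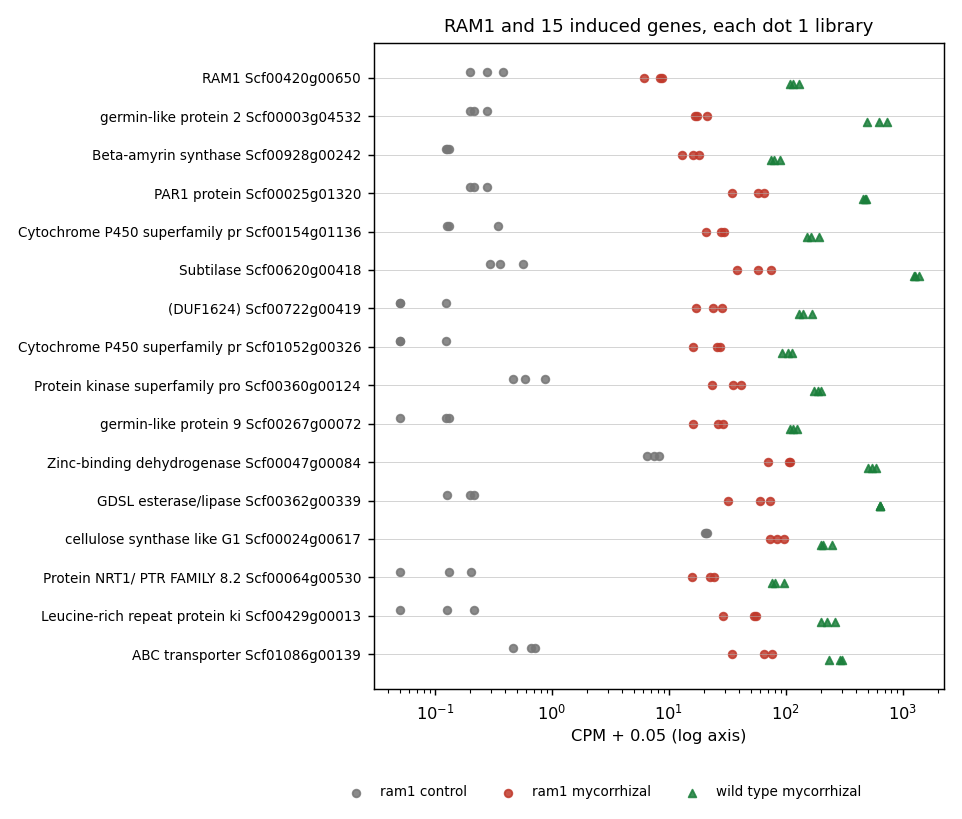
CPM plus 0.05 on a log axis (x) of *RAM1* and the 15 described genes with the smallest p among the steady induced ones (y), each point 1 library: grey circles *ram1* control, red circles *ram1* mycorrhizal, green triangles wild type mycorrhizal. For every gene the *ram1* mycorrhizal points lie between the controls and the wild type, and *RAM1* stood at 6.06 to 8.62 CPM against 117 in the mean of the wild type.

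Mycorrhizal replicate 1 was lower than its 2 companions in 90 of the 96 steady induced genes. Its level was 0.567 times the mean of the others in the median gene (quartiles 0.491 and 0.683). Summed over the 96 genes, the mycorrhizal libraries had 2154, 3959 and 3603 CPM and the controls 149, 136 and 140 CPM. The 96 genes were chosen on these libraries, in a way that favours controls that agree, so the sums are a description. A further 664 genes were chosen for a wild type response of 5-fold or more in edgeR's model of all 12 libraries. That model also uses the *ram1* libraries for its read filter, scaling and estimate of the spread. In these 664 genes the sums were 3131, 2965 and 3524 CPM in *ram1* controls and 6795, 10200 and 9116 CPM in mycorrhizal *ram1* roots. In the 427 of them with a control mean below 10 reads in the wild type, the sums were 294, 297 and 417 CPM in controls and 1763, 3380 and 2796 CPM in mycorrhizal roots. Control replicate 3 was the highest control in both sums.

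The strigolactone genes, which act before contact, held 5 tested genes of 6, and edgeR called none on the 6 libraries (median log2 fold change 0.35 against 0.01 over all genes tested). *CCD8* (Peaxi162Scf00227g00714.1), a carotenoid cleavage dioxygenase of strigolactone synthesis, had 166, 118 and 72.9 CPM in controls and 235, 325 and 279 CPM in mycorrhizal roots. The groups did not overlap, but the difference did not pass the test (1.19, SE 0.304, adjusted p 0.0947). It passed with DESeq2 (adjusted p 0.00587), in edgeR's model of all 12 libraries (0.0373) and with limma voom and quality weights. Its partner *CCD7* had 97.8, 73.8 and 27.3 against 67.6, 59.4 and 53.3 CPM, and the isomerase *D27* had 23.6 ± 5.38 against 35.9 ± 2.21 CPM (SD, n = 3). Control replicate 3 was the lowest library for all 3 of these genes. *D27* had an adjusted p of 0.134 on the 6 libraries, 0.0919 with DESeq2 and 0.0442 in edgeR's model of all 12 libraries. *MAX1* had a mean below 10 reads in both groups and was not tested, and the 2 *MAX2* genes had log2 fold changes of 0.08 and 0.35 with adjusted p of 0.840 and 0.128.

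None of the 8 common symbiosis genes was called by edgeR on the 6 libraries either (median 0.06). The log2 fold changes of *SYMRK*, *CASTOR*, *POLLUX*, *NUP85*, *NUP133*, *NENA* and *CCaMK* lay between −0.34 and 0.38, with adjusted p from 0.0993 to 0.950. *CYCLOPS* (Peaxi162Scf02295g00022.1), the transcription factor that is phosphorylated by CCaMK, had 47.1, 25.1 and 28.8 CPM in controls and 71.9, 74.1 and 80.5 CPM in mycorrhizal roots (1.13, SE 0.238, adjusted p 0.0696, and 0.0180 without control replicate 1, the highest control). Other tools did call members: *CYCLOPS* had an adjusted p of 0.00144 with DESeq2 and 0.0132 in edgeR's model of all 12 libraries, and *CASTOR* (Peaxi162Scf00883g00321.1), a nuclear ion channel, 0.0421 and 0.0212. Both also passed with limma voom and quality weights.

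Genes of intracellular accommodation were induced in part. Of 4 genes, 3 were called by edgeR on the 6 libraries, all induced (75%, against 1.11% of all genes tested). The median log2 fold change was 2.57, and 1 of the 3 was steady. *VAPYRIN* (Peaxi162Scf00575g00001.1), needed for entry into cells and for arbuscules, had 20.1, 16.0 and 18.8 CPM in controls and 44.2, 60.6 and 55.0 CPM in mycorrhizal roots (1.499, SE 0.151, adjusted p 0.00731). *EXO70i* (Peaxi162Scf00081g02225.1), a subunit of the exocyst that tethers secretory vesicles, rose from 0.492, 0.231 and 0.148 to 3.89, 8.62 and 6.33 CPM (4.35, SE 0.501, 0.0129). *MAP70-5* (Peaxi162Scf00008g00212.1), for a microtubule-associated protein, rose from 1.39, 1.85 and 1.41 to 6.84, 14.6 and 12.1 CPM (2.79, SE 0.331, 0.0142). Neither of the last 2 passed without control replicate 2 or mycorrhizal replicate 2 or 3 (adjusted p 0.0528 to 0.0779), and *MAP70-5* also not without control replicate 1 (0.0734). *EXO84* had 1.15, 1.85 and 0.89 against 3.11, 11.2 and 6.598 CPM (adjusted p 0.0758). It passed with DESeq2 (adjusted p 0.00111) and in edgeR's model of all 12 libraries (0.0209).

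Genes that work at the arbuscule were low in mycorrhizal *ram1* roots. The phosphate transporter gene *PT4* (Peaxi162Scf00618g00532.1) had 4.76, 2.08 and 6.30 CPM in controls and 7.62, 10.0 and 3.07 CPM in mycorrhizal *ram1* roots. The groups overlapped (0.60, SE 0.529, adjusted p 0.501), whereas the wild type had 606 ± 54.1 CPM in mycorrhizal roots and 13.2 ± 11.3 CPM in controls. *RAM2* (Peaxi162Scf00129g00625.1), a glycerol-3-phosphate acyltransferase gene for lipids destined to the fungus, had no read in the controls and 14 reads in the mycorrhizal libraries together (0.233, 1.13 and 0.271 CPM). That is at least 5.82-fold higher, taking a floor of 3 reads over the controls, and wild type mycorrhizal roots had 288 CPM. The ammonium transporter gene *AMT2* (Peaxi162Scf00341g00514.1) had 2 reads in the controls and 3 in mycorrhizal *ram1* libraries, against 180 CPM in the mycorrhizal wild type. Neither *RAM2* nor *AMT2* reached a mean of 10 reads in *ram1*, so they were not tested on the 6 *ram1* libraries. In edgeR's model of all 12 libraries the *ram1* response had an adjusted p of 0.0395 for *RAM2* and 0.658 for *AMT2*.

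The half-size ABC transporter genes of the arbuscule membrane were higher in every mycorrhizal than in every control library of *ram1*, at low levels. *STR* (Peaxi162Scf00282g00221.1) was the 1 gene that edgeR called on the 6 libraries among the 4 tested arbuscule genes (25%). It had 3 reads in the controls and 3.27, 13.8 and 7.95 CPM in mycorrhizal roots, a 94.8-fold rise (95% counting interval 32.0 to 463, adjusted p 0.0223). Without control replicate 1 or 2 or mycorrhizal replicate 2 or 3 its adjusted p was 0.0601 to 0.0948. *STR2-A* had 0.328, 0.693 and 0.667 against 2.56, 8.34 and 3.16 CPM and *STR2-B* 0.492, 0.077 and 0 against 2.80, 4.38 and 2.89 CPM, with adjusted p of 0.0620 and 0.0581. Both *STR2* genes passed with DESeq2 (adjusted p 0.000217 and 3.88e-05) and in edgeR's model of all 12 libraries (0.0333 and 0.00141). In the mycorrhizal wild type the 3 genes had 209, 153 and 201 CPM, and in wild type controls 0.0819, 12.8 and 0.323 CPM. *STR2-A* thus rose in *ram1* from a control mean of 0.563 CPM, lower than in wild type controls. Its mean in mycorrhizal *ram1* roots was 4.69 CPM.

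Transcription factor genes of several families were called. Of 56 tested GRAS genes, the family to which *RAM1* belongs, 10 were induced (17.9%) and 1 repressed (1.79%). The shares over all genes tested were 1.11% and 0.771%. The median of the GRAS genes was 0.31, and 7 were steady. Peaxi162Scf00089g00027.1 had 1 read in each control and 13.3, 33.8 and 24.1 CPM in mycorrhizal roots, a 282-fold rise (95% counting interval 95.9 to 1368, adjusted p 0.00186). Its mean of 23.7 CPM in mycorrhizal *ram1* roots compared with 21.2 ± 2.83 CPM in mycorrhizal wild type roots. Peaxi162Scf00624g00051.1 rose 224-fold (76.1 to 1088) to 21.5, 18.5 and 11.8 CPM, where the wild type had 56.7 CPM.

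In the Pt20/MIG subfamily of GRAS genes, of 11 genes 3 were called, all induced and steady, 5 others were tested, and 3 stayed below 10 reads. The induced share was 37.5% of the members tested, against 1.11% of all genes tested. Peaxi162Scf00164g01138.1 went from 1 read in the controls to 9.02, 30.0 and 23.9 CPM (740-fold, 132 to 29268, adjusted p 0.00513). Peaxi162Scf00228g00224.1 reached 2.80, 4.52 and 3.07 CPM (63.6-fold, 17.2 to 532, 0.00598) and Peaxi162Scf00228g00111.1 reached 4.67, 5.66 and 9.04 CPM (49.4-fold, 0.00306), against 24.8 and 61.9 CPM in the mycorrhizal wild type. Of the 5 tested members that were not called, Peaxi162Scf00691g00048.1 had 4.43 CPM in controls and 11.4 CPM in mycorrhizal roots (adjusted p 0.0646), Peaxi162Scf00058g00263.1 had 1.15 and 5.27 CPM (0.0763) and Peaxi162Scf00164g01137.1 had 1.68 and 2.54 CPM (0.495). The groups did not overlap for the first 2 of these. Both passed with DESeq2 (adjusted p 0.000824 and 0.00174) and in edgeR's model of all 12 libraries (0.00325 and 0.00641). Peaxi162Scf00164g01137.1 passed with neither (0.593 and 0.330). Peaxi162Scf00058g02629.1 and Peaxi162Scf00691g00043.1 had lower means in mycorrhizal than in control roots, with log2 fold changes of −1.45 and −1.46 and adjusted p of 0.211 and 0.130, and their means were also lower in mycorrhizal than in control roots of the wild type. The 3 members below the read minimum had 1, 2 and 2 reads in the controls and 23, 14 and 16 in the mycorrhizal libraries.

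Of 162 AP2/ERF genes, for transcription factors of ethylene and stress responses, 5 were induced (4.35% of those with enough reads for the test) and 2 repressed (1.74%), with a median of 0.26 over the genes tested. Over all genes tested 1.11% were induced and 0.771% repressed. The 3 AP2/ERF genes with the smallest p were steady. Peaxi162Scf00463g10017.1 had 6.97, 4.16 and 5.41 CPM in controls and 48.7, 35.3 and 34.2 CPM in mycorrhizal roots (2.80, SE 0.241, adjusted p 0.00358). Peaxi162Scf00015g00067.1 rose 233-fold (41.4 to 9263) to 5.91, 6.93 and 5.604 CPM and Peaxi162Scf00177g00109.1 144-fold (39.4 to 1197) to 5.05, 11.3 and 7.77 CPM. Of 113 tested MYB genes none was induced and 3 were repressed (2.65%), none of them steady. *MYB61* (Peaxi162Scf00071g00135.1) had 24.3 ± 3.54 CPM in controls and 8.46 ± 2.28 CPM in mycorrhizal roots (adjusted p 0.0309, and 0.0673 to 0.128 without control replicate 1 or 2 or mycorrhizal replicate 2 or 3). *MYB93* (Peaxi162Scf00041g01811.1, 17.2 to 10.0 CPM, adjusted p 0.0456) was not called in any fit with 1 library left out (0.0503 to 0.168), and *MYB40* (Peaxi162Scf00797g00013.1) only without mycorrhizal replicate 1. In the wild type *MYB93* had 11.1 CPM in controls and 1.46 CPM in mycorrhizal roots.

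Families known from defence and from fungal walls had a few induced members each. Of 18 tested chitinase genes, for enzymes that cleave the chitin of fungal walls, 3 were induced (16.7%, against 1.11% of all genes tested). No chitinase gene was repressed (median 0.61), and all 3 induced ones were steady. They share the description chitinase 2 and reached 12.2, 19.9 and 20.9 CPM (Peaxi162Scf00616g00612.1, 220-fold, 74.9 to 1070), 10.6, 28.0 and 24.7 CPM (Peaxi162Scf00616g00611.1, 81.5-fold) and 3.27, 7.78 and 6.78 CPM (Peaxi162Scf00589g00225.1, 107-fold, 29.3 to 893). Over all 18 genes the median of mycorrhizal replicate 1 was only 0.09 above the control mean on the log2 scale, against 1.07 and 0.74 in the other mycorrhizal libraries, and control replicate 3 was at 0.27. The first 2 of these genes are neighbours in number on 1 scaffold, and reads with several hits were counted.

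PR10 (Bet v 1) genes, for small proteins that bind hydrophobic ligands, showed 9 induced and no repressed members of 31 tested. The induced share was 29%, against 1.11% of all genes tested. The median was 0.20, and 4 genes were steady. Peaxi162Scf00553g00623.1 rose from 0.082, 0.462 and 0.964 to 130, 272 and 252 CPM (8.66, SE 0.619, adjusted p 0.00216). Peaxi162Scf00332g00123.1 reached 45.3, 96.4 and 90.2 CPM and Peaxi162Scf00347g00919.1, annotated as S-norcoclaurine synthase, went from 6.48, 5.16 and 6.598 to 75.1, 173 and 138 CPM. Summed over all 41 members, however, controls had 7591 to 11185 CPM and mycorrhizal roots 5501 to 8257 CPM.

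Germin-like genes had 9 induced (25%) and 1 repressed member (2.78%) of 36 tested (median −0.04), and 4 were steady. Over all genes tested these shares were 1.11% and 0.771%. Beside the gene named first, germin-like protein 9 (Peaxi162Scf00267g00072.1) rose 437-fold (121 to 3618) to 16.1, 29.1 and 26.0 CPM. A second germin-like 2 gene (Peaxi162Scf00003g04512.1) went from 1 control read to 10.7, 8.62 and 17.7 CPM (492-fold, 87.7 to 19462). It was at 2.92 ± 0.948 CPM in mycorrhizal wild type roots, where its neighbour in number Peaxi162Scf00003g04532.1 had 621 CPM. Both models belong to 1 description and reads with up to 10 hits were counted, so the totals alone do not tell their reads apart with certainty. Levels in unique reads are not given here.

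Subtilases had 3 induced members of 54 (5.56%, against 1.11% of all genes tested), all steady, and none repressed (median −0.05). Peaxi162Scf00302g00812.1 reached 19.8, 39.3 and 35.4 CPM (576-fold, 159 to 4766) and Peaxi162Scf00302g00085.1 rose from 0.492, 0.616 and 0.222 to 14.8, 34.6 and 27.1 CPM (adjusted p 0.00295). Serine carboxypeptidases went both ways, with 2 induced (4.35%) and 3 repressed members (6.52%, against 0.771% of all genes tested) of 46, none of them steady. Peaxi162Scf00016g01638.1 rose 41.2-fold (13.7 to 203, adjusted p 0.00800) and lost its call without control replicate 2 only (0.0580). Of 237 RING and U-box genes, for proteins that attach ubiquitin, 5 were induced (2.11%, against 1.11% of all genes tested) and none repressed (median −0.04). The steady one, for U-box protein 42 (Peaxi162Scf00192g00028.1), went from 0.574, 0.462 and 0.890 to 25.0, 47.6 and 44.1 CPM (5.85, SE 0.365, adjusted p 0.00163). Of 154 genes matched as disease resistance genes 3 were induced (1.95%) and 1 repressed (median 0.28). Both shares are near that of all genes and are no result about these families. The steady member of the resistance list (Peaxi162Scf00074g01524.1, 5.08, 2.08 and 2.67 to 39.96, 84.7 and 86.3 CPM) is annotated as dirigent-like, a protein of lignan formation, not as a receptor. The receptor-type gene Peaxi162Scf00130g01329.1 rose 2.12-fold (adjusted p 0.0373, and 0.129 to 0.145 without control replicate 1 or 2 or mycorrhizal replicate 2 or 3).

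Genes of secondary metabolism were called in both directions. Of 302 tested cytochrome P450 genes, 12 were induced (3.97%, against 1.11% of all genes tested), and 5 were steady. The 3 repressed ones (0.993%, against 0.771%) are a share near that of all genes and no result about the family (median 0.06). Peaxi162Scf00154g01136.1 went from 0.082, 0.077 and 0.297 to 20.8, 28.0 and 29.5 CPM (7.26, SE 0.371, adjusted p 0.00147), and Peaxi162Scf01052g00326.1 from 1 control read to 16.2, 27.4 and 25.9 CPM (860-fold, 154 to 33998). Peaxi162Scf00560g00072.1 had no read in the controls and 23.6, 35.9 and 37.0 CPM in mycorrhizal roots, at least 402-fold more. The beta-amyrin synthase gene was the 1 call among 49 tested terpene synthase genes (2.04%). Of 167 UDP-glycosyltransferase genes, whose products attach sugars to small molecules, 8 were induced (4.79%) and 7 repressed (4.19%). Steady were 3, among them Peaxi162Scf00451g00024.1 (310-fold, 85.4 to 2567) and Peaxi162Scf00265g00104.1 (0.082, 0.462 and 0.074 to 18.7, 31.1 and 25.7 CPM). The third, Peaxi162Scf00760g00221.1, rose from 6.15 to 35.4 CPM in *ram1* (adjusted p 0.00513), where wild type roots had 53.7 CPM without and 116 CPM with the fungus.

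Of 78 tested phenylpropanoid and lignin genes 2 were induced (2.56%), both steady, and 1 was repressed (1.28%), with a median of −0.51. Over all genes tested the shares were 1.11% and 0.771%. The 4-coumarate:CoA ligase 2 gene (Peaxi162Scf00409g00123.1), an entry enzyme of the pathway, rose from 1 control read to 16.1, 37.3 and 26.5 CPM (953-fold, 171 to 37693), and cinnamyl alcohol dehydrogenase 9 (Peaxi162Scf00913g00322.1), a later enzyme, from 0.246, 0.231 and 0.593 to 5.29, 7.07 and 7.41 CPM (4.11, SE 0.380, adjusted p 0.00498). Laccase 17 (Peaxi162Scf00094g01013.1), which couples lignin monomers, had 50 reads in the controls and 1 in the mycorrhizal libraries, a ratio of 0.0249 (0.000619 to 0.146, adjusted p 0.0272). Without control replicate 1 or 2 or mycorrhizal replicate 2 or 3 its adjusted p was 0.0833 to 0.111. Glutathione S-transferase TAU 20 (Peaxi162Scf01096g00318.1) rose from 0.246, 0.154 and 0.445 to 21.3, 61.2 and 33.1 CPM (adjusted p 0.00315). It was the steady one of 2 induced genes among 57 of its family (3.51%). In lipid synthesis, 2 of 49 genes were induced and 2 repressed (4.08% each), none steady. An acyl carrier protein gene (Peaxi162Scf00431g00312.1) had 1.32, 2.40 and 1.99 CPM in mycorrhizal *ram1* roots, where the mycorrhizal wild type had 244 CPM (adjusted p 0.0190, and 0.0768 to 0.0904 without any 1 of control replicates 1 and 2 and mycorrhizal replicates 2 and 3).

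Of 86 tested nitrate and peptide transporter genes 7 were induced (8.14%) and 2 repressed (2.33%), with a median of −0.20, and 5 were steady. The shares over all genes tested were 1.11% and 0.771%. *NRT1/PTR 8.2* (Peaxi162Scf00064g00530.1) went from 0.082, 0.154 and 0 to 15.8, 22.6 and 24.3 CPM (263-fold, 89.5 to 1278), *NRT1/PTR 4.3* (Peaxi162Scf01055g00219.1) from 0, 0.231 and 0.074 to 23.9, 40.7 and 38.0 CPM, and the high affinity nitrate transporter 2.6 (Peaxi162Scf00311g00312.1) from 0.164, 0.077 and 0.148 to 23.4, 68.6 and 35.9 CPM. An ammonium transporter gene other than *AMT2* (Peaxi162Scf00282g00327.1) rose from 0.738, 1.23 and 1.04 to 13.8, 20.9 and 25.9 CPM (4.27, SE 0.319, adjusted p 0.00238). It was steady and the 1 call among 6 tested ammonium transporter genes (16.7%). No gene of 57 for phosphate transport and phosphate starvation was called (median −0.04), with 2 called at most when 1 library was left out.

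Of 98 ABC transporter genes 5 were induced (5.1%) and 4 repressed (4.08%), with a median of −0.03 and 2 steady. Peaxi162Scf01086g00139.1 rose from 0.410, 0.616 and 0.667 to 34.6, 76.8 and 64.4 CPM (6.62, SE 0.406, adjusted p 0.00163) and a pleiotropic drug resistance 6 gene (Peaxi162Scf00244g01216.1) from 6.07, 5.24 and 4.15 to 35.2, 54.7 and 46.8 CPM (3.10, SE 0.222, 0.00216). In auxin response, 2 of 124 genes were induced and 2 repressed (median −0.21), shares of 1.61% each that are near those of all genes (1.11% and 0.771%). The steady one, a GH3 gene (Peaxi162Scf00945g00013.1) of the family that conjugates auxin to amino acids, rose from 12.4, 12.5 and 14.1 to 131, 296 and 279 CPM (4.14, SE 0.336, adjusted p 0.00295).

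Of the 167 repressed genes 124 fell at least 2-fold. The 2 steady ones were a MtN21/EamA-like transporter gene (Peaxi162Scf00683g00343.1), with 12.1, 12.4 and 16.4 CPM in controls and 3.19, 2.83 and 2.53 CPM in mycorrhizal roots (−2.29, SE 0.194, adjusted p 0.00334), and an alpha/beta-hydrolase gene (Peaxi162Scf00053g00716.1), with 9.27, 8.93 and 9.71 against 2.72, 1.98 and 2.44 CPM (−1.98, SE 0.182, 0.00480). In both the libraries of a group lay close together. A DUF642 gene (Peaxi162Scf00207g00747.1), of a family of wall proteins, fell from 51.9, 61.1 and 86.7 to 13.7, 17.1 and 12.7 CPM (−2.25, SE 0.221, 0.00660) and missed the threshold only without mycorrhizal replicate 3 (0.0523). A leucine-rich repeat receptor kinase gene (Peaxi162Scf00077g00077.1) fell from 20.9, 26.9 and 32.8 to 6.61, 4.81 and 4.07 CPM (−2.41, SE 0.248, 0.00807) and missed it only without mycorrhizal replicate 2 (0.0618).

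The tonoplast aquaporin gene Peaxi162Scf00034g00315.1 fell from 70.2, 67.4 and 78.0 to 22.2, 11.4 and 15.1 CPM (−2.17, SE 0.241, 0.0114) and was not called without control replicate 2 (0.0529) or mycorrhizal replicate 3 (0.0849). The peroxidase gene Peaxi162Scf01054g00024.1 fell from 81.5, 64.4 and 75.6 to 32.8, 24.0 and 27.9 CPM (−1.42, SE 0.154, 0.00990) and was not called without mycorrhizal replicate 2 or 3 (0.0528 and 0.0763). The other genes named by the same rule had 0.240 to 0.486 times their control level in mycorrhizal roots. They encode a protein kinase 2B, a homeobox-leucine zipper factor, a DUF1005 protein, a SUI1-type initiation factor, an HCO3- transporter family member (Peaxi162Scf00015g00444.1), a SAUR protein, a ROP guanine nucleotide exchange factor, an ABC transporter and a further peroxidase. Each lost its call without 2 to 4 of the 6 libraries, with adjusted p up to 0.0906.

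**Figure D4:**
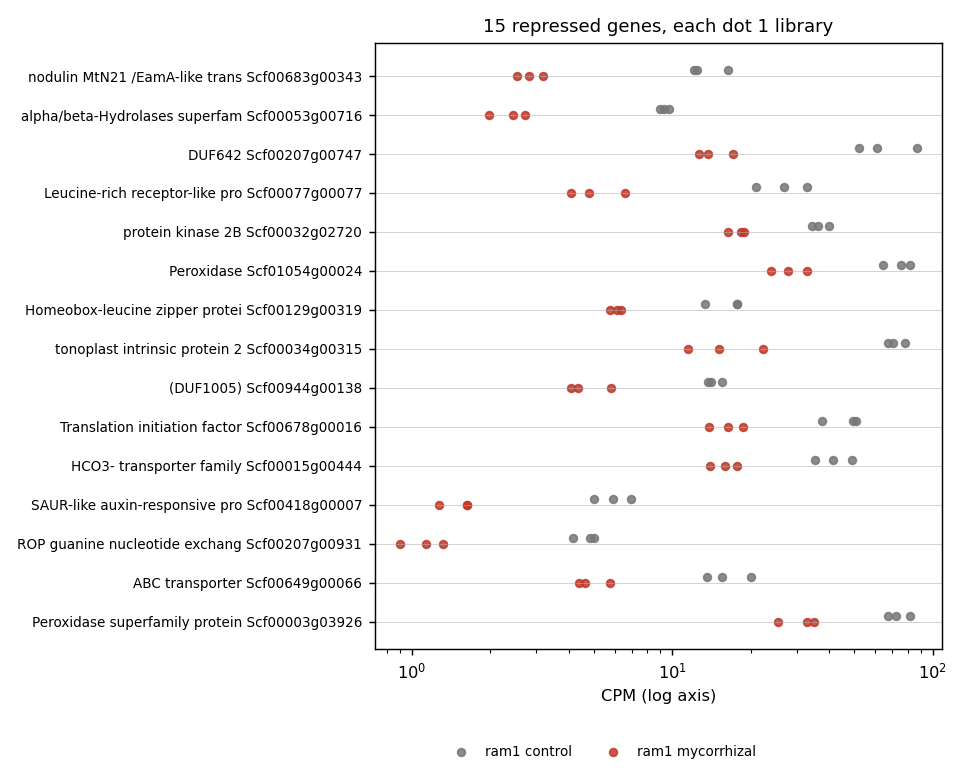
CPM on a log axis (x) of the 15 described genes with the smallest p among the repressed ones (y), each point 1 *ram1* library: grey control, red mycorrhizal. The groups do not overlap for any of them, as for the MtN21/EamA-like transporter gene with 12.1 to 16.4 CPM in controls and 2.53 to 3.19 CPM in mycorrhizal roots.

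Lists of wall genes had medians below that of all genes tested, with few calls. Class III peroxidases had 6 repressed and 2 induced genes of 116 tested (median −0.53), GDSL esterases 7 and 1 of 64 (−0.47), expansins, which loosen walls, 4 and 0 of 33 (−0.48), pectin enzymes 4 and 0 of 80 (−0.56) and DUF642 genes 3 and 0 of 9 (−0.45). Expansin A7 (Peaxi162Scf00620g00542.1), known from root hairs in Arabidopsis, fell from 5.41, 2.92 and 5.04 to 0.622, 0.283 and 0.723 CPM (−2.99, SE 0.404, adjusted p 0.0235, and 0.0888 to 0.102 without control replicate 1 or mycorrhizal replicate 2 or 3). Over these lists the repressed shares were 5% (pectin enzymes) to 33.3% (DUF642), against 0.771% of all genes tested. The induced shares of peroxidases (1.72%) and GDSL esterases (1.56%) were near the 1.11% of all genes. None of the repressed members was steady. Without mycorrhizal replicate 2 or 3 no pectin enzyme gene was called repressed, and without mycorrhizal replicate 2 no expansin gene. Without mycorrhizal replicate 1, in contrast, 34 peroxidase genes were. The peroxidase gene Peaxi162Scf00062g00127.1 went the other way and was steady, from 0.328, 1.00 and 1.19 to 70.7, 135 and 133 CPM (6.995, SE 0.461, adjusted p 0.00185).

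Xyloglucan endotransglucosylases (1 repressed of 34, 2.94%, against 0.771% of all genes tested) and arabinogalactan and fasciclin proteins (0 of 16) had medians of −0.79 and −0.81. Relative to the mean of the controls on the log2 scale, the median gene of the former list stood at −0.34, −1.10 and −1.33 in mycorrhizal replicates 1 to 3, and that of the latter at −0.42, −1.02 and −0.97. Aquaporins (median −0.84, 1 induced and 1 repressed of 42, 2.38% each) stood at −0.65, −0.77 and −1.04, with control replicate 3 at −0.32. Their summed level was 14777 to 24593 CPM in controls and 9683 to 11812 CPM in mycorrhizal roots. The induced one encodes NIP1-1 (Peaxi162Scf00160g01331.1) and reached 2.56, 9.05 and 6.06 CPM (205-fold, 36.2 to 8130, adjusted p 0.0160, and 0.0528 to 0.111 without control replicate 1 or 2 or mycorrhizal replicate 2 or 3). In these 3 lists mycorrhizal replicate 1 was the one nearest to the controls, which was not so for expansins and DUF642 genes. Without control replicate 3, 18 aquaporin genes were called repressed, and 8 without mycorrhizal replicate 1. At most 1 was called repressed with any other library left out. Without mycorrhizal replicate 1, 12 xyloglucan endotransglucosylase genes and 8 arabinogalactan and fasciclin genes were called repressed.

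**Figure D5:**
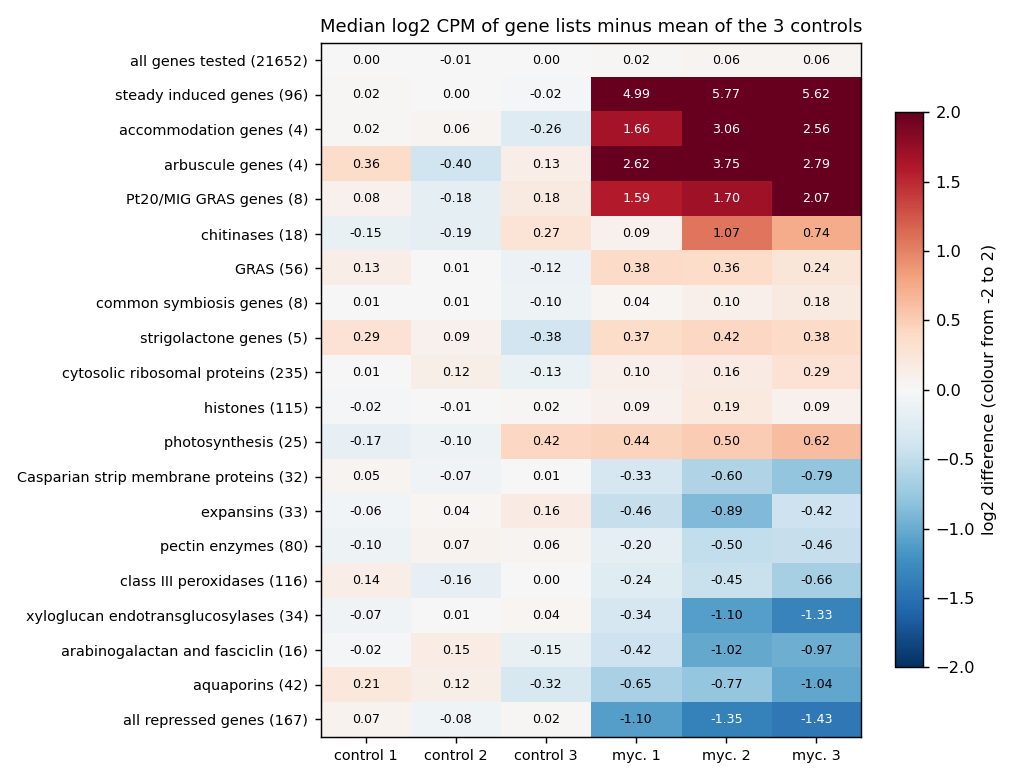
Median log2 CPM of the tested genes of each list (rows, number of genes in brackets) minus the mean of the 3 *ram1* controls, for each *ram1* library (columns); red is above and blue below the control mean. Aquaporins, xyloglucan endotransglucosylases and arabinogalactan proteins are lower in all 3 mycorrhizal libraries and least so in replicate 1, while the median over all genes tested stays between −0.01 and 0.06.

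No gene of the lists for histones, cytosolic ribosomal proteins (235 tested), NAC factors (72), sugar transporters (83), lipid transfer proteins (49) or extensins and proline-rich proteins (103) was called. These lists had 2, 2, 7, 4, 6 and 22 calls at most in either direction with 1 library left out. In the same order their median log2 fold changes were 0.06, 0.15, 0.07, −0.14, −0.67 and −0.27. Of the ribosomal protein genes 207 had a positive value. Markers of other tissues were checked in the same way. Of 99 photosynthesis genes 25 were tested and 13 had no read in any *ram1* library. None was called, and their summed level was 111 to 154 CPM in controls and 157 to 187 CPM in mycorrhizal roots, with control replicate 3 highest of the controls in the median gene (0.42). Casparian strip membrane protein genes, markers of the root endodermis, were present at 773 to 1107 CPM in controls and 802 to 844 CPM in mycorrhizal roots. None of 32 was called, but their median log2 fold change was −0.53, 9 had a positive value, and the median gene stood at −0.33, −0.60 and −0.79 in mycorrhizal replicates 1 to 3. Without mycorrhizal replicate 1, 8 of them were called repressed. The summed level of heat shock protein genes was 11150 to 14297 CPM in controls and 16325 to 24244 CPM in mycorrhizal roots. Among 92 there was 1 call, a repressed gene (1.09%, against 0.771% of all genes tested). The part of these shifts in the results was not tested.

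Most genes induced in *ram1* were also induced in the wild type. In the model of all 12 libraries 12.6% of 22954 genes were induced and 9.14% repressed in the wild type. The same model called 1126 genes induced and 1187 repressed in *ram1*. The counts that follow set wild type calls of that model against *ram1* calls of the fit to 6 libraries, which called fewer genes. Of the 241 genes induced in *ram1*, 213 were also induced in the wild type and 2 were repressed there. All 96 steady induced genes were induced in the wild type. Their level in mycorrhizal *ram1* roots was 0.181 times that in mycorrhizal wild type roots in the median gene (quartiles 0.112 and 0.291). It was under 0.1 times for 16 genes and above the wild type for 5. The lower share of fungal reads that the study reports for *ram1* was not taken into account. Of the 167 repressed genes, 47 were repressed and 6 induced in the wild type. Of the 664 genes that rose 5-fold or more in the wild type, 184 were called induced and 1 repressed in *ram1*, where 213 others had too few reads to be tested.

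A difference in response between the genotypes was tested as an interaction. Over all genes, 5.17% responded lower and 4.03% higher in *ram1* than in the wild type. Of the 241 induced genes the response was smaller in *ram1* in 75, larger in 20 and not called different in 146. For the 167 repressed genes the numbers were 3, 32 and 132. Clear examples of a smaller response were the germin-like 2 gene Peaxi162Scf00003g04532.1 (log2 difference −6.14, SE 0.803, adjusted p 0.00120), at 18.4 CPM against 621 CPM in the mycorrhizal wild type, and the pleiotropic drug resistance 6 gene (−4.21, SE 0.276, 1.24e-05). The cellulose synthase like G1 gene and U-box 42 were not called different (adjusted p 0.0594 and 0.799), with log2 differences of 0.71 (SE 0.210) and 0.23 (SE 0.464). Where control counts are close to 0 in both genotypes the SE of the interaction varies widely and is a poor guide. It was 2.69 for the DUF1624 gene but 0.459 for the second germin-like 2 gene (Peaxi162Scf00003g04512.1). Such genes are better read from their levels, for the DUF1624 gene 23.1 ± 5.73 against 146 ± 20.1 CPM in mycorrhizal roots. The number of genes with an interaction was 1251 to 3302 with 1 of the 12 libraries left out, against 2110 with all. It was 1274 without *ram1* control replicate 2, 3302 without *ram1* control replicate 3, 1387 without wild type control replicate 1, and 1335 and 1251 without wild type mycorrhizal replicates 1 and 2.

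Some genes responded more in *ram1* than in the wild type, and for the 3 induced genes named here the control level was lower in *ram1* than in the wild type. Among 52 genes called in *ram1* with a larger response there, the smallest p belonged to Peaxi162Scf00152g00326.1, a gene without description. It had 0.164, 0.154 and 0.148 CPM in *ram1* controls and 6.997, 8.20 and 10.0 CPM in mycorrhizal *ram1* roots (5.63, SE 0.290, adjusted p 0.00147, steady). The wild type had 13.2, 19.8 and 18.9 CPM in controls and 24.9 to 25.2 CPM in mycorrhizal roots, so the larger response in *ram1* went with a control level near 0. The nine-cis-epoxycarotenoid dioxygenase 3 gene (Peaxi162Scf00227g00007.1), for an enzyme of abscisic acid synthesis, rose from 3.76 to 17.6 CPM in *ram1* (2.18, SE 0.308, adjusted p 0.0267, and 0.0908 to 0.117 without control replicate 2 or mycorrhizal replicate 2 or 3). In the wild type it fell from 65.5 to 27.9 CPM. A steroid dehydrogenase family gene (Peaxi162Scf00120g00814.1) had 0.423 CPM in *ram1* controls and 4.30 CPM with the fungus (adjusted p 0.0478, and 0.121 to 0.171 without control replicate 1 or 2 or mycorrhizal replicate 2 or 3) and 10.9 and 7.21 CPM in the wild type.

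Opposite directions were also found among the repressed genes. *MYB40* (Peaxi162Scf00797g00013.1, adjusted p 0.0478 in *ram1*) had 22.3 CPM in controls and 13.9 CPM in mycorrhizal roots of *ram1*, and 12.7 and 18.04 CPM in the wild type (log2 difference −1.18, SE 0.156, adjusted p 0.00126). The neighbouring gene model, for a small heat shock protein (Peaxi162Scf00797g00012.1), had nearly the same values (22.9 and 13.4, 13.2 and 20.0 CPM), and reads of the pair cannot be told apart from the totals. A serine carboxypeptidase-like 22 gene (Peaxi162Scf00401g00525.1) fell from 39.6, 36.5 and 30.5 to 15.9, 14.4 and 9.58 CPM in *ram1* (−1.46, SE 0.214, adjusted p 0.0297, and 0.0672 to 0.128 without control replicate 1 or 2 or mycorrhizal replicate 2 or 3). In the wild type it rose from 51.1 to 117 CPM (log2 difference −2.61, SE 0.352, adjusted p 0.00143).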

How the data were processed

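Total RNA of petunia roots was sequenced in 12 libraries, 3 for each of 4 groups formed by genotype and inoculation as the labels give them. The authors trimmed the reads, mapped them to the *Petunia axillaris* reference transcripts in CLC Genomics Workbench, keeping reads with up to 10 hits, and deposited counts per gene model (total and unique gene reads). RPKM values and the authors' own fold changes and p-values of a test on proportions are also in the tables and were not used. The 6 *ram1* libraries had 7152267 to 13391147 reads on genes.

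Total gene reads were tested with edgeR 4.0.16 (R 4.3.3, TMM, quasi-likelihood test, Benjamini-Hochberg adjustment, threshold 0.05) on the 6 *ram1* libraries, for genes with a mean of at least 10 reads in either group. The interaction with genotype used 1 model of all 12 libraries. Each SE was derived from the test, as the absolute log2 value divided by the square root of its F statistic. CPM levels are not comparable between genes, since they are not divided by length. Where the controls held 0 reads, folds are lower bounds computed with 3 reads for all controls together, and with 1 to 3 reads they carry an exact 95% counting interval. Intervals and bounds cover counting error only. edgeR's tests of the *ram1* response and of the interaction were also run on simulated counts. The sources used here do not say whether counting used strand.

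Genes were named by rule: *RAM1* and hand lists of symbiosis genes taken from the study, the 15 induced and 15 repressed genes with the smallest p among those with a description, a mean of at least 50 reads in the higher group and no overlap of the groups, up to 3 members of each list described, and up to 5 genes with a larger response in *ram1*. Being called in every fit with 1 library left out was a further condition, dropped for repressed genes because only 2 met it. Lists with at least 3 calls are described, and ammonium transporters, terpene synthases, glutathione S-transferases, aquaporins and lists without calls were added after their values were seen. Members and lists were chosen with earlier results of these data known. Alternatives comprised other scalings, filters, unique reads, DESeq2 1.42.0, limma 3.58.1 with voom quality weights, a robust fit, a replicate block and leaving out libraries.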

Additional observations from a re-analysis of the deposited data

Results flagged for a closer look

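A test of the difference between the genotypes called 2110 genes whose response to the fungus was not the same in *ram1* and in the wild type. Of the genes chosen by the rule for named genes, the following passed it. Values are log2 fold changes in *ram1* minus those in the wild type.

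Among symbiosis genes the difference was −4.05 for *RAM1*, −3.20 for *MAP70-5*, −4.90 for *PT4*, −10.2 for *AMT2* and −5.14 for *STR2-B*. The arbuscule genes *RAM2*, *STR* and *STR2-A* did not pass. In mycorrhizal roots *RAM2* had 0.545 CPM in *ram1* and 288 CPM in the wild type, and *STR* 8.36 and 209 CPM. Controls of *RAM2* and *STR* held few or no reads in both genotypes, so the missing call does not show an equal response. For *MAX2-B* (Peaxi162Scf00469g00034.1) it was 0.98 and for *CASTOR* (Peaxi162Scf00883g00321.1) 0.70, both genes that were not called in *ram1* itself. In the Pt20/MIG group it was −2.47 (Peaxi162Scf00058g00263.1), −7.28 (Peaxi162Scf00691g00048.1), −3.23 (Peaxi162Scf00164g01137.1), −5.42 (Peaxi162Scf00228g00224.1) and −6.99 (Peaxi162Scf00228g00111.1). The value of Peaxi162Scf00691g00048.1 includes a difference between the controls, with 4.43 CPM in *ram1* and 0.081 CPM in the wild type. In mycorrhizal roots this gene had 11.4 and 36.5 CPM.

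Among the other induced genes the response was smaller in *ram1* by −6.14 for germin-like 2 (Peaxi162Scf00003g04532.1), −2.62 for PAR1, −4.06 for the P450 gene Peaxi162Scf00154g01136.1, −4.54 and −2.96 for the subtilases Peaxi162Scf00620g00418.1 and Peaxi162Scf00302g00085.1, and −3.05 for the zinc-binding dehydrogenase. The difference was −9.53 for the serine carboxypeptidase Peaxi162Scf00016g01638.1, −5.49 for cinnamyl alcohol dehydrogenase 9, −4.50 for the peroxidase Peaxi162Scf00062g00127.1 and −4.21 for the chitinase Peaxi162Scf00616g00611.1. The controls of this peroxidase gene also differed, with 0.838 CPM in *ram1* and 0.081 CPM in the wild type, against 113 and 271 CPM in mycorrhizal roots. For the glutathione S-transferases Peaxi162Scf01096g00318.1 and Peaxi162Scf01343g00113.1 the difference was −5.41 and −3.45, for the ammonium transporter Peaxi162Scf00282g00327.1 −2.18 and for pleiotropic drug resistance 6 −4.21.

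A larger rise in *ram1* was found for the gene without description Peaxi162Scf00152g00326.1 (5.14), nine-cis-epoxycarotenoid dioxygenase 3 (3.45), the steroid dehydrogenase family gene (3.90), the UDP-glycosyltransferase Peaxi162Scf00760g00221.1 (1.41) and the resistance gene Peaxi162Scf00130g01329.1 (0.98). Repressed genes with a lower value in *ram1* were the MtN21/EamA-like transporter (−1.60), the alpha/beta-hydrolase (−1.52), the DUF1005 gene Peaxi162Scf00944g00138.1 (−1.84), laccase 17 (−3.95), serine carboxypeptidase-like 22 (−2.61), *MYB40* (−1.18) and its neighbour Peaxi162Scf00797g00012.1 (−1.37).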

How the results depend on the processing

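The number of genes called in *ram1* (408, with 241 induced and 167 repressed) depended on the test and on single libraries. It was 2375 (857 and 1518) with DESeq2, 2313 (1126 and 1187) in 1 model of all 12 libraries and 2483 (968 and 1515) with limma voom and sample quality weights. With 1 library left out it lay between 117 and 1464 (110 to 670 induced, 5 to 1016 repressed). Without control replicate 3 and mycorrhizal replicate 1 together, a setting chosen after seeing the data, it was 4473 (1989 and 2484). It stayed between 372 and 433 under other scalings and filters, with unique reads and with a robust fit. The number of interactions (2110) was 3251 with DESeq2 and 1251 to 3302 with 1 library left out. The cause was not tested.

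With the replicate number as a replicate block 855 genes were called (332 induced, 523 repressed). Same-numbered libraries correlated in their deviations from the group means at 0.377, −0.212 and 0.192, and control replicate 3 correlated best with mycorrhizal replicate 2 (0.391), so the numbers were not taken as pairs. For the named genes, 1824 single values stayed on their side of the threshold, 45 came to pass it, 170 no longer passed it and no called value changed sign. The 2 other scalings moved no named gene across the threshold. Many induced genes rest on few reads in the controls, which limits how exactly their folds are known.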
